A study of Mus musculus with 48 samples.

Results

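The 46 genes described here encode proteins of DNA repair outside mismatch repair and of the p53 response. They were taken by gene symbol from a table of counts per gene in mouse cerebral cortex, and all 46 were found among its 48795 genes. By role they comprise 14 genes of base excision and single-strand break repair, 9 of nucleotide excision repair, 12 of double-strand break repair and signalling, 2 of translesion synthesis, and 9 of p53 itself and its response. The libraries came from 48 mice on a C57BL/6 background, aged 12 months, in 6 genotype groups of 8 mice with 4 females and 4 males each. The groups were wild type, Msh3+/-, Msh3-/-, Q140, Q140 with Msh3+/- and Q140 with Msh3-/-. Q140 mice are heterozygous for a knock-in at Htt that lengthens its CAG repeat, which models Huntington disease, and Msh3 encodes a mismatch recognition protein that promotes somatic expansion of that repeat. The design asks how cortical expression differs with Q140, with Msh3 genotype and with both.

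DNA bases damaged by oxidation, alkylation or deamination are removed by base excision repair, in which a glycosylase cuts out the base, an endonuclease opens the strand, and a polymerase and a ligase close the gap. Nucleotide excision repair removes bulky lesions and, through its transcription-coupled branch, lesions that stall RNA polymerase, a pathway whose inherited defects cause neurodegeneration. Double-strand breaks activate the kinases ATM, ATR and DNA-PK, and p53, which ATM and ATR activate, switches on genes of cell cycle arrest, apoptosis and repair. Neurons do not divide, whereas homologous recombination, which copies a sister chromatid, is used mainly by dividing cells. Several base excision enzymes, including the glycosylase OGG1, have also been studied for a part in expanding CAG repeats.

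Library totals ran from 37.7 to 68.3 M (mega) counts, with a median of 48.6 M. All 46 genes passed the filter on low counts that 19547 genes passed. Their counts per library ran from 32 for Brca1 to 10163 for Zmat3. Levels below are in CPM, each count taken relative to its TMM-normalized library total, and differences are log2 fold changes with their standard error. The 4 marker genes of cortical glutamatergic neurons summed to 1586 to 1882 CPM over the 48 libraries, and 6 markers of striatal projection neurons to 141 to 185 CPM. The label on extraction names striatum at another age, but tissue, title and age labels all give cortex at 12 months. Msh3 had a mean of 22.4 CPM in wild type and of 60.1 and 99.2 CPM in the libraries labelled Msh3+/- and Msh3-/-, higher rather than lower. Neither the deleted part of Msh3 nor the part counted is given in the sources used here, so these counts do not measure loss of the protein. In 7 libraries, all male and none with Q140, markers of choroid plexus or pituitary summed to over 5 times the median of all libraries. These libraries are called rich in such markers below, and calls and the correlation of Cdkn1a with Gadd45a are given with and without them. The medians were 7.42 CPM for choroid plexus and 0.745 CPM for pituitary. Msh3+/- male 2 passed on choroid plexus, at 613 CPM. The others passed on pituitary, from 3.74 CPM in Msh3-/- male 4 to 45.2 CPM in wild-type male 2, so the pituitary cut lay at a low level.

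Per unit of gene length, the 46 genes spanned 233-fold in wild-type cortex. The deposited FPKM (fragments scaled by gene length and library total) was highest for Ccng1, cyclin G1, at 32.4 ± 2.83 (SD, n = 8). It was lowest for Brca1, a homologous recombination protein, at 0.139 ± 0.0257. Abundance did not follow the roles. Among base excision genes, Parp1, the sensor of strand breaks that makes poly(ADP-ribose), stood at 14.2 ± 0.696 FPKM, the apurinic endonuclease gene Apex1 at 13.3 ± 0.459 and the gap-filling polymerase gene Polb at 10.6 ± 0.997. The glycosylases that start the pathway were lower: Neil1 at 4.59, Mpg at 3.15, Ogg1 at 1.97, Nthl1 at 1.45, Neil2 at 1.34, Mutyh at 0.799 and Ung at 0.278 FPKM. The single-strand break factors Parp2, Fen1, Lig3 and Xrcc1 lay at 9.1, 4.55, 4.43 and 4.16 FPKM.

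In nucleotide excision repair, the helicase genes of the TFIIH complex, Ercc3 (XPB) and Ercc2 (XPD), had the highest levels, 9.44 and 7.51 FPKM. The transcription-coupled repair genes differed from each other, with Ercc6 (CSB) at 5.73 and Ercc8 (CSA) at 1.38 FPKM. The incision nuclease genes Ercc1, Ercc5 and Ercc4 lay at 5.21, 4.5 and 3.77 FPKM, and the damage recognition genes Xpc and Xpa at 3.51 and 2.74. Among double-strand break genes, Trp53bp1, which encodes the break-site scaffold 53BP1, was highest at 9.6 FPKM. Nbn and Rad50 of the end-sensing complex stood at 6.65 and 3.98 FPKM. The end-joining genes Xrcc5 (Ku80), Xrcc6 (Ku70), Prkdc (the DNA-PK kinase), Lig4 (its ligase) and Xrcc4 (partner of the ligase) stood at 6.39, 3.35, 3.13, 2.34 and 0.98. The damage kinases Atm and Atr had 2.7 and 0.911 FPKM, and the homologous recombination gene Brca2 had 0.434. The translesion polymerase genes Rev1 and Polh had 5.27 and 1.76 FPKM. Among p53 response genes Bax, a pore-forming apoptosis protein, had 14.3 and Zmat3, an RNA-binding p53 target, 12.9 FPKM. Mdm2, the ligase that degrades p53, had 9.23, Phlda3 6.55, Cdkn1a 6.09, Trp53 itself 4.45, Gadd45a 1.98 and Bbc3, the apoptosis activator PUMA, 1.38 FPKM.

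**Figure D1:**
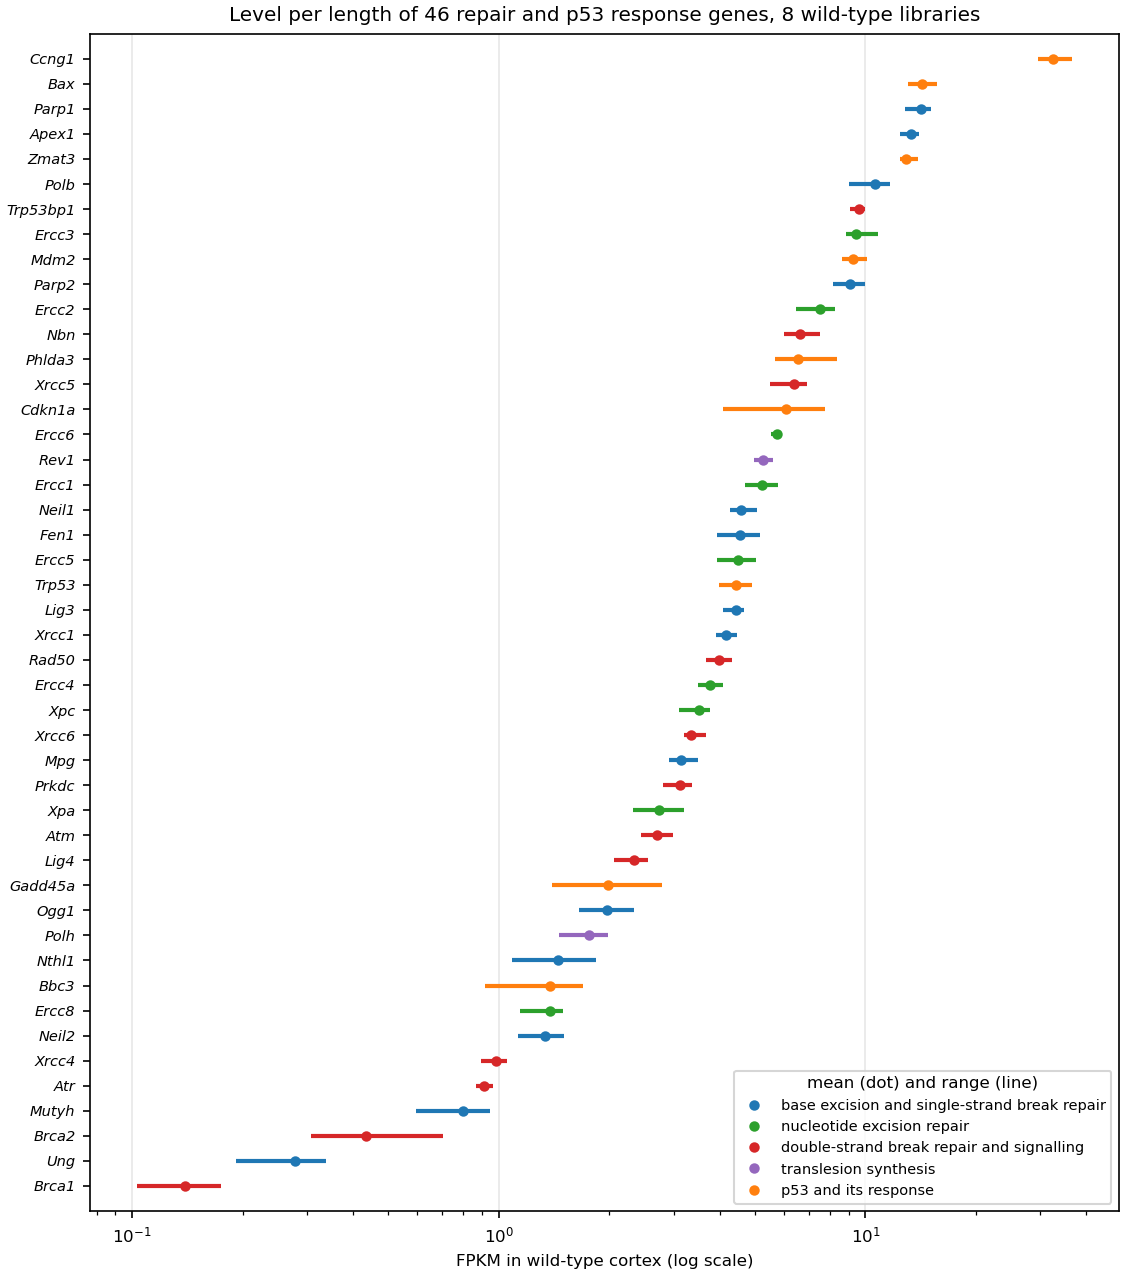
Level per length (FPKM, log axis) of the 46 genes in the 8 wild-type libraries, with the mean as a dot, the range as a line and the colour giving the role. Ccng1 stands above all others at a mean of 32.4 FPKM, and 41 of 45 neighbouring pairs in the order have ranges that overlap.

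Most neighbours in that order did not differ beyond their spread: the wild-type ranges overlapped in 41 of 45 neighbouring pairs. Gaps without overlap lay after Ccng1, after Zmat3, after Neil2 and after Ung. The length behind the deposited FPKM differed from the exonic length in GENCODE M21 for 8 of the 46 genes, by over 1.5 times in 6, so the order holds for the deposited lengths only. At the GENCODE exonic length the wild-type level would be 0.516 FPKM for Neil2, 0.576 for Nthl1, 4.48 for Parp2, 0.76 for Polh, 3.76 for Ercc6 and 3.81 for Cdkn1a. Neil2 and Nthl1 would then lie below Mutyh.

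The windows around the start sites of 3 p53 response genes are shown because these genes carry the genotype, sex and between-mouse results. They are RefSeq windows on GRCm38.p6, written 5′ to 3′ along the gene from 250 bases before the annotated start to 50 after it. Capitals mark letters that match the p53 half-site consensus of 10 letters, searched with no mismatch. The consensus reads the same on both strands, so one search covers both. Ccng1 lies at chr11:40755237-40755536 on the minus strand and has a half-site 185 bases before the start. Cdkn1a has 2 windows, and the one with half-sites is shown, at chr17:29090729-29091028 on the plus strand. Its half-sites begin 73 and 51 bases before the start of that window's transcript, separated by 12 bases. The 10 letters directly after the second half-site match the consensus in all but the first letter, so this search leaves them unmarked. The other Cdkn1a window held no half-site. Gadd45a lies at chr6:67037358-67037657 on the minus strand and has a half-site 40 bases before the start.
Ccng1: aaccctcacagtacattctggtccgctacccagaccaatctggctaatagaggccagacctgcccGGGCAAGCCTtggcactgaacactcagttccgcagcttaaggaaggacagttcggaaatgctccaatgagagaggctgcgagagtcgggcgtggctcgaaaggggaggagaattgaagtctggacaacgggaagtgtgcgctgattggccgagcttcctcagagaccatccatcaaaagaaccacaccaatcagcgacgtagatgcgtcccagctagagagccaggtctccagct
Cdkn1a: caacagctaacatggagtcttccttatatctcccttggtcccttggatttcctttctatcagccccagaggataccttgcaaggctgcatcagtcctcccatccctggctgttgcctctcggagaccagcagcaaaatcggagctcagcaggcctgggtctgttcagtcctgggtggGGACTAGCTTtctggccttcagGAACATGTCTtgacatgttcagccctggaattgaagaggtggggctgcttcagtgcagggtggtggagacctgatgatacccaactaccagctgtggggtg
Gadd45a: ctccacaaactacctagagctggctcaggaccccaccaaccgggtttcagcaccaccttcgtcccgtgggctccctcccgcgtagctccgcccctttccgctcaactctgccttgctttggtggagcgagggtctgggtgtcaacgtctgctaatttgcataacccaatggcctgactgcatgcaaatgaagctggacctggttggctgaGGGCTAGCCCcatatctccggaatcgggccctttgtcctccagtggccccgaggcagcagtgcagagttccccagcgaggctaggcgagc

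A half-site occurred in 8.36% of the 32851 windows of the table, and a pair at most 13 bases apart in 0.0731%. Of the 46 genes, 38 had a window, and 8 of these held a half-site. They comprised Ccng1, Cdkn1a, Gadd45a, Bax, Mdm2 and Trp53, which are 6 of the 8 p53 response genes with a window, and the base excision genes Neil1 and Fen1. Only Cdkn1a held a pair. A match describes letters in a window and shows neither binding nor regulation. Xpc, Polb, Neil2, Zmat3, Rad50, Ercc3, Nbn and Prkdc had no window in the table.

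Over 12 genotype comparisons, 1 of the 46 genes passed the test in 1 comparison: Ccng1, lower with Q140 averaged over the Msh3 genotypes, where 1.47% of all genes passed. In the 7 comparisons between pairs of groups, in the averaged Msh3+/- and Msh3-/- comparisons and in both interactions, edgeR called 0 of 46 genes and DESeq2 also called 0. In those 11 comparisons edgeR called between 0% and 0.215% of all genes, so the counts lie near the background and say nothing particular about these genes. In DESeq2, 11 of the 46 had no adjusted p for Msh3-/- averaged over Q140 status. The 95% interval of each change was compared with a log2 limit of 0.32 up or down. Upward this limit is a change of 25%, and downward it is a smaller percentage. In the averaged Q140 comparison the interval lay within the limit for 45 of 46 genes, against 76.7% of all genes tested. The corresponding count was 39 of 46 for Q140 against wild type (63.3% of all genes) and 38 of 46 for Msh3-/- against wild type (63.4%). For the interactions with Msh3+/- and Msh3-/- it was 33 and 36 of 46, against 54.5% and 54.7% of all genes. The width of an interval depends on the counts and the spread between mice. These shares therefore do not compare the size of genotype effects between the 46 genes and all genes.

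**Figure D2:**
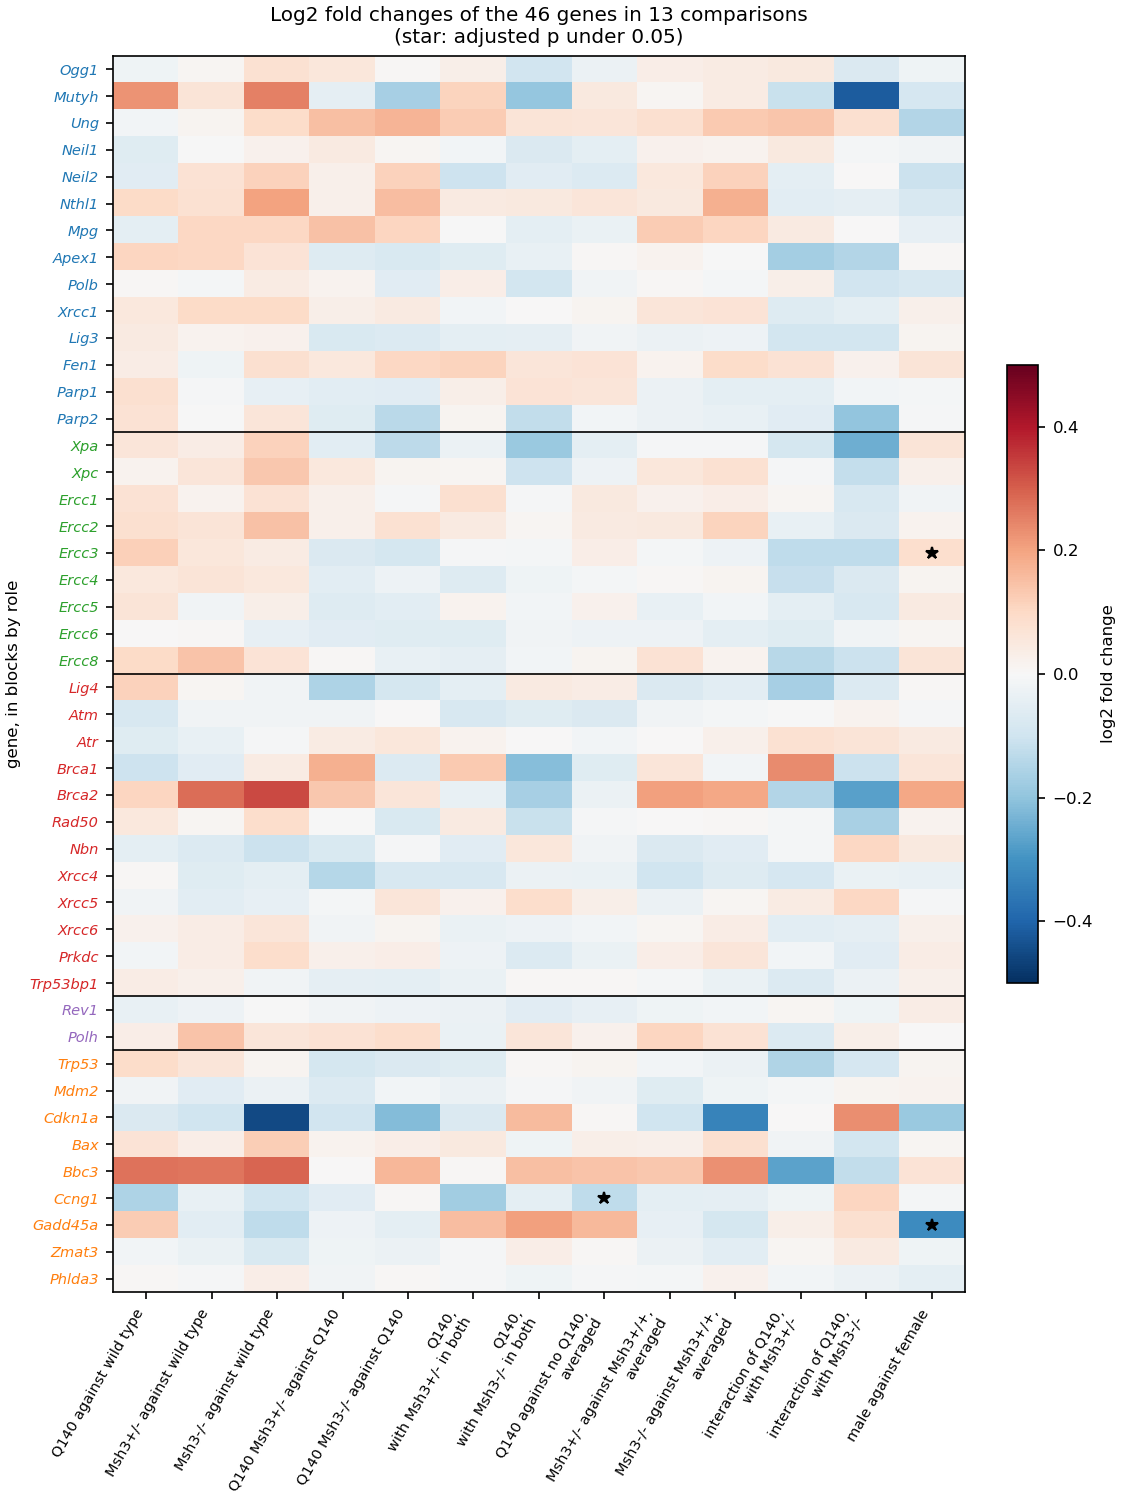
Log2 fold changes (colour) of the 46 genes in rows, in blocks by role, for 13 comparisons in columns, with a star at an adjusted p under 0.05 by edgeR. The 3 stars are Ccng1 for Q140 averaged over Msh3 genotypes, and Ercc3 and Gadd45a for males against females.

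In Q140 against wild type, edgeR with Benjamini-Hochberg adjustment called 0 of the 46 genes, against 0.102% of all genes tested. An unadjusted p under 0.05 was found for 7 genes, 6 higher and 1 lower, or 15.2%, against 8.8% of all genes. The p53 target Ccng1 had -0.155 ± 0.054 (adjusted p = 0.354). Above 0 were Ercc3 at 0.119 ± 0.039 (adjusted p = 0.331), Apex1 at 0.109 ± 0.043, Parp1 at 0.082, Mutyh at 0.224, Bbc3 at 0.273 and Lig4 at 0.116. All 9 nucleotide excision genes lay above 0, with a median of 0.066, against a median of 0.001 over all genes tested. Of 18 other nucleotide excision genes outside the 46, 6 lay above 0 and 12 below, with a median of -0.032. With Msh3+/- in both groups, 0 of 46 passed for Q140, against 0.0512% of all genes, and 1 had an unadjusted p under 0.05, against 7.77% of all genes. That gene was Ccng1, at -0.175 ± 0.054 (edgeR adjusted p = 0.361). With Msh3-/- in both groups, 0 of 46 passed, against 0.0205% of all genes, and 4 had an unadjusted p under 0.05, against 6.77%. They were Parp2 at -0.123, Rad50 at -0.11, Xpa at -0.184 and Mutyh at -0.194, and Ccng1 had -0.049 ± 0.054.

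Ccng1 (ENSMUSG00000020326, GRCm38 chr11:40748552-40755311), which encodes cyclin G1, a p53 target that recruits a phosphatase to MDM2, was lower in Q140 carriers. Wild-type libraries had a lowest, median and highest level of 104, 111 and 130 CPM, Msh3+/- libraries of 102, 110.2 and 126 CPM, and Msh3-/- libraries of 94.4, 106 and 121 CPM. With Q140 the values were 91.3, 104 and 121 CPM, with Q140 and Msh3+/- 94.8, 98.0 and 107 CPM, and with Q140 and Msh3-/- 87.4, 105 and 112 CPM. The 3 groups with Q140 had lower medians, by least with Msh3-/- in both groups (105 against 106 CPM). Each overlapped its counterpart without Q140. Averaged over the Msh3 genotypes the log2 fold change was -0.126 ± 0.031 (edgeR adjusted p = 0.0243), from a mean of 111 CPM in 24 mice without Q140 to 102 CPM in 24 with it. This was 1 of 46 genes called, lower, against 1.47% of all genes, and DESeq2 also called 1. An unadjusted p under 0.05 was found for 4 of 46, against 15.1% of all genes: Ccng1, Parp1 at 0.06 ± 0.021 (adjusted p = 0.119), Atm at -0.073 ± 0.027 (0.153) and Bbc3 at 0.142 ± 0.068 (0.309). The interactions for Ccng1 were -0.021 ± 0.076 with Msh3+/- and 0.106 ± 0.076 with Msh3-/- (edgeR adjusted p of at least 0.999), so the decrease was not shown to differ between Msh3 genotypes.

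**Figure D3:**
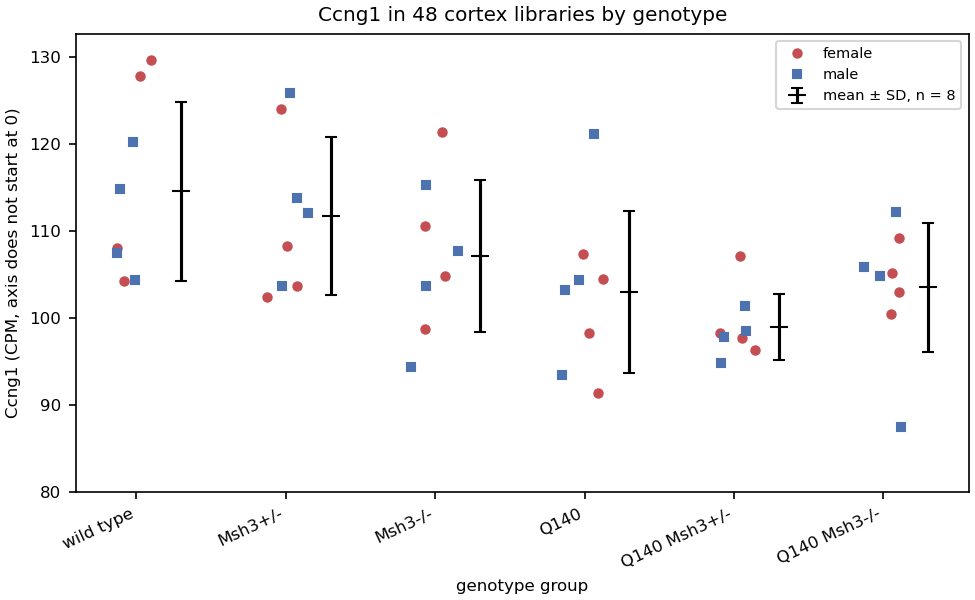
Ccng1 level (CPM, axis not starting at 0) in 48 cortex libraries by genotype group, with circles for females, squares for males and the mean ± SD (n = 8) beside each group. The groups with Q140 reach from 87.4 to 121 CPM and those without it from 94.4 to 130 CPM.

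The Ccng1 call held in each of 48 fits that left out 1 library, with adjusted p from 0.00675 to 0.0434. It was lost with a term for plate column (log2 fold change -0.12, adjusted p = 0.0952) and without the 7 libraries rich in choroid plexus or pituitary markers (-0.113, adjusted p = 0.133). Within plate columns, which come from the well address, the Q140 difference was below 0 in all 6 columns, from -0.205 to -0.061, the last resting on 1 library without Q140. In column 4 all 3 Q140 carriers were male and all 5 other mice female, so its -0.094 cannot be told apart from sex. The other 5 columns span the same range, but they are not free of sex either. In column 6 all 4 mice without Q140 were male, and all 4 are among the 7 libraries rich in choroid plexus or pituitary markers. These column differences have no term for sex or Msh3 genotype. Of 5 astrocyte markers, 3 were also lower with Q140 in the averaged comparison, Slc1a2 at -0.182, Gja1 at -0.139 and Slc1a3 at -0.107, while Aqp4 and Aldh1l1 had -0.007 and -0.011. Their summed level ran from 4587 to 5853 CPM without Q140 and from 4262 to 5069 CPM with it. Of 3 pituitary markers 1 was called lower, with a summed level of 0.273 to 45.2 CPM without Q140 and 0.379 to 3.68 CPM with it. The part of either in the Ccng1 result was not tested. In bulk tissue, fewer cells of a type and less RNA per cell cannot be told apart.

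In Msh3-/- against wild type, edgeR called 0 of 46 genes, against 0.113% of all genes, and 10 had an unadjusted p under 0.05, or 21.7%, against 10.8% of all genes. Ercc2, a helicase of nucleotide excision repair, had the smallest p. Wild-type libraries had a lowest, median and highest Ercc2 level of 27.2, 32.1 and 34.3 CPM and Msh3-/- libraries of 32.6, 34.3 and 38.8 CPM, so the groups overlapped. The log2 fold change was 0.146 ± 0.045 (edgeR adjusted p = 0.283). The others above 0 were Mutyh, Bax, Xpc, Bbc3, Xrcc1 and Brca2, at 0.251, 0.124, 0.135, 0.291, 0.094 and 0.331, and those below 0 were Zmat3, Cdkn1a and Nbn, at -0.075, -0.451 and -0.108. Averaged over Q140 status, Msh3-/- gave 0 calls among the 46, against 0.215% of all genes, and 7 with an unadjusted p under 0.05, against 14.9%. Ercc2 had 0.11 ± 0.032 (adjusted p = 0.11) and the alkyladenine glycosylase gene Mpg 0.106 ± 0.04. Bbc3, Bax and Xrcc1 also lay above 0, and Zmat3 and Cdkn1a below. Exons of other genes on the opposite strand cover 42.4% of the exonic bases of Ercc2 and 35.7% of those of Mpg. The strand setting of the counting is not given in the sources used here, so the overlap may have changed these counts either way.

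In Msh3+/- against wild type, edgeR called 0 of 46 genes, against 0.0307% of all genes, and 4 had an unadjusted p under 0.05, against 4.96%. They were Ercc8 at 0.142 ± 0.056, Apex1 at 0.102, Xrcc1 at 0.094 and Bbc3 at 0.268, all with an adjusted p of 0.963. Averaged over Q140 status, Msh3+/- gave 0 calls, against 0.0512% of all genes, and 4 genes with an unadjusted p under 0.05, against 8.14%. Mpg had 0.126 ± 0.04 (edgeR adjusted p = 0.447), Xrcc1 0.061, Mdm2 -0.061 and Nbn -0.072. All 3 single-mutant groups were set against the same 8 wild-type mice. Against them, Apex1, which cuts the strand at abasic sites, had 0.109, 0.102 and 0.07 for Q140, Msh3+/- and Msh3-/-, and Bbc3 had 0.273, 0.268 and 0.291. Exons on the opposite strand cover 61.7% of the exonic bases of Apex1.

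Among Q140 mice, Msh3 genotype gave no call either. In Q140 with Msh3+/- against Q140, edgeR called 0 of 46 genes, against 0.0307% of all genes, and 2 had an unadjusted p under 0.05, against 6.22%. Lig4 had -0.156 ± 0.057 and Mpg 0.148 ± 0.056, both with an adjusted p of 0.777. In Q140 with Msh3-/- against Q140, 0 of 46 were called, against 0.102% of all genes, and 2 had an unadjusted p under 0.05, against 6.86%. Parp2, a second poly(ADP-ribose) polymerase, had -0.135 ± 0.054 (edgeR adjusted p = 0.688) and Ercc3 -0.088 ± 0.039 (0.712). The interaction of Q140 with Msh3+/- gave 0 calls among the 46 and 0% among all genes, with 4 genes under an unadjusted p of 0.05, against 3.3% of all genes. These were Apex1 at -0.168 ± 0.061, Ercc3 at -0.126, Trp53 at -0.15 and Lig4 at -0.166. The interaction with Msh3-/- also gave 0 calls and 0% among all genes, with 5 genes under 0.05, against 3.2%. Mutyh, which removes adenine paired with oxidized guanine, had -0.417 ± 0.137, Parp2 -0.196, Apex1 -0.147, Ercc3 -0.128 and Rad50 -0.163. All 9 values were below 0, and in each interaction 32 of 46 genes lay below 0, against 9858 and 9971 of the 19547 genes tested. Both interactions use the same wild-type and Q140 mice, and the smallest adjusted p among the 46 was 0.999 by edgeR.

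In base excision repair 7 of 14 genes lay above 0 in the averaged Q140 comparison and none was called. For Msh3-/- against wild type 13 of 14 lay above 0, from -0.042 to 0.251, with a median of 0.079, and none was called. The interval lay within the log2 limit of 0.32 for 10 of 14. Over all genes tested, 10212 lay above 0 and 9335 below, with a median of 0.005. Of the 12 other base excision genes tested, 3 lay above 0 and 9 below, with a median of -0.017. The 14 changes share the same wild-type libraries, so they are not independent, and a joint rise of these genes was not tested. The glycosylase genes Nthl1 and Neil2 had group medians from 1.53 CPM in wild type to 1.89 in Q140 with Msh3-/- and from 2.38 in Q140 to 2.87 in Msh3-/-. Parp1 group medians ran from 73.8 CPM in Msh3+/- to 79.0 in Q140, and its libraries from 67.1 to 87.9 CPM. Ogg1 group medians ran from 4.19 CPM in Q140 to 4.55 in Msh3-/-, Polb medians from 40.6 in Q140 with Msh3-/- to 43.1 in Q140, and Xrcc1 medians from 24.2 in wild type to 26.1 in Q140 with Msh3-/-. Mutyh had medians from 2.13 CPM in Q140 with Msh3-/- to 2.50 in Q140, and Mpg from 11.4 in Q140 to 12.8 in Msh3+/-. Apex1 medians ran from 19.2 CPM in wild type to 20.6 in Q140, and those of Parp2 from 15.3 in Q140 with Msh3-/- to 16.8 in Msh3-/-. Ung, the uracil glycosylase gene, and Fen1, the flap endonuclease gene, were lowest in wild type and highest in Q140 with Msh3-/-, with medians from 1.54 to 1.70 CPM and from 11.1 to 12.2 CPM. Each of these genes had overlapping groups. Exons on the opposite strand also cover 84.2% of the exonic bases of Fen1 and 25.1% of those of Lig3.

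In nucleotide excision repair 5 of 9 genes lay above 0 in the averaged Q140 comparison, from -0.05 to 0.049. Ercc1, the partner of the Ercc4 nuclease, had group medians from 16.2 CPM in wild type to 17.6 in Q140 with Msh3+/-. Ercc8 lies on the chromosome of Msh3, 15.8 Mb from it, at GRCm38 chr13:108158731-108195364. Its wild-type libraries had a lowest, median and highest level of 8.82, 10.9 and 11.7 CPM, Msh3+/- libraries 11.0, 11.7 and 13.1, and Msh3-/- libraries 8.94, 11.1 and 12.5 CPM. These 3 groups overlapped, and Ercc8 was called in none of the comparisons.

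In double-strand break repair 3 of 12 genes lay above 0 in the averaged Q140 comparison, with a median of -0.015. Xrcc4, the end-joining member nearest to Msh3, 2.12 Mb away at GRCm38 chr13:89774027-90089608, had 3.81, 4.19 and 4.41 CPM as lowest, median and highest in wild type, 3.46, 3.80 and 5.16 CPM in Msh3+/-, and 3.56, 3.99 and 4.88 CPM in Msh3-/-. These groups overlapped as well. Averaged over Q140 status, its change was -0.101 ± 0.064 with Msh3+/- and -0.066 ± 0.063 with Msh3-/- (edgeR adjusted p = 0.685 and 0.648). The Ku subunit genes Xrcc5 and Xrcc6 had group medians from 15.99 to 16.99 CPM and from 14.9 to 15.6 CPM, and Atm from 26.5 CPM in Q140 to 28.3 in Msh3-/-. Lig4 ranged in its medians from 11.9 CPM in Q140 with Msh3+/- to 13.7 in Q140. Rad50 medians ran from 21.04 CPM in Q140 with Msh3-/- to 22.95 in Msh3-/-, Nbn medians from 15.6 in Msh3+/- to 17.2 in wild type, and Atr medians from 20.9 in Msh3+/- to 21.6 in wild type. Brca1 medians lay between 1.02 and 1.24 CPM and those of Brca2 between 5.6 and 7.37 CPM. The homologous recombination genes Brca1 and Brca2 had wider intervals in Q140 against wild type, from -0.391 to 0.183 and from -0.202 to 0.417. The lower end for Brca1 and the upper end for Brca2 lay beyond the log2 limit of 0.32, and the other ends lay within it. The translesion genes Rev1 and Polh had -0.042 and 0.02 in the averaged Q140 comparison, and neither was called anywhere.

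Other p53 response genes gave no genotype call. Trp53, the p53 gene, had group medians from 18.1 CPM in Q140 with Msh3+/- to 19.6 in Q140, and Mdm2 from 44.0 in Q140 with Msh3+/- to 46.9 in Q140 with Msh3-/-. In the averaged Q140 comparison Trp53 had 0.012 ± 0.028, Mdm2 -0.017 ± 0.023 and Cdkn1a 0.004 ± 0.111, with adjusted p of 0.892, 0.785 and 0.99. Zmat3 medians ran from 140.5 to 149 CPM. Bbc3 medians ran from 2.88 CPM in wild type to 4.09 in Q140 with Msh3-/-, and its largest change was 0.291 ± 0.122 (edgeR adjusted p = 0.397). Cdkn1a, which encodes the cell cycle inhibitor p21, had a lowest, median and highest level of 9.16, 14.3 and 17.3 CPM in wild type and of 6.84, 9.52 and 13.4 CPM in Msh3-/-. The groups overlapped, and the change of -0.451 ± 0.193 (edgeR adjusted p = 0.407) has a 95% interval from -0.84 to -0.061.

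Males and females differed in 2 of the 46 genes by edgeR, against 4.28% of all genes, and DESeq2 also called 2. An unadjusted p under 0.05 was found for 5, against 17.4% of all genes. Ercc3 (ENSMUSG00000024382, GRCm38 chr18:32240300-32270151), the XPB helicase gene of TFIIH, was higher in males. Females had a lowest, median and highest level of 25.1, 26.7 and 30.3 CPM and males of 25.8, 28.7 and 30.9 CPM, so the sexes overlapped over most of their range. The log2 fold change was 0.085 ± 0.023 (adjusted p = 0.0187). By group, male and female means stood apart in wild type (28.2 and 25.7 CPM), Msh3+/- (29.2 and 26.8), Q140 with Msh3+/- (29.0 and 26.6) and Q140 with Msh3-/- (28.8 and 26.3). The means were close in Msh3-/- (27.7 for both sexes) and in Q140 (29.3 and 29.2). A difference of the sex effect between genotypes was not tested. Within plate columns the difference was above 0 in all 6, from 0.016 to 0.141. In column 4, where males and Q140 carriers were the same mice, its 0.134 cannot be told apart from Q140. The other 5 columns span the same range, but these column differences have no term for genotype. In column 6 the 4 males without Q140 are all among the libraries rich in choroid plexus or pituitary markers.

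Gadd45a (ENSMUSG00000036390, GRCm38 chr6:67035096-67037457), a stress sensor induced by p53, was lower in males. Females had a lowest, median and highest level of 2.88, 3.78 and 6.01 CPM and males of 2.06, 3.11 and 4.75 CPM, again with overlap. The log2 fold change was -0.314 ± 0.089 (edgeR adjusted p = 0.0305). The female mean was higher in 5 of 6 groups and lower in Q140, at 3.74 CPM against 3.92 in males. Within plate columns the difference ran from -0.588 to 0.03 and was below 0 in 5 of 6. The exception was column 4, where sex and Q140 coincide. Exons of a gene on the opposite strand cover 19.1% of the exonic bases of Gadd45a. The other genes with an unadjusted p under 0.05 were Polb at -0.079 ± 0.027 (adjusted p = 0.0879), Ung at -0.146 and Brca2 at 0.192.

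**Figure D4:**
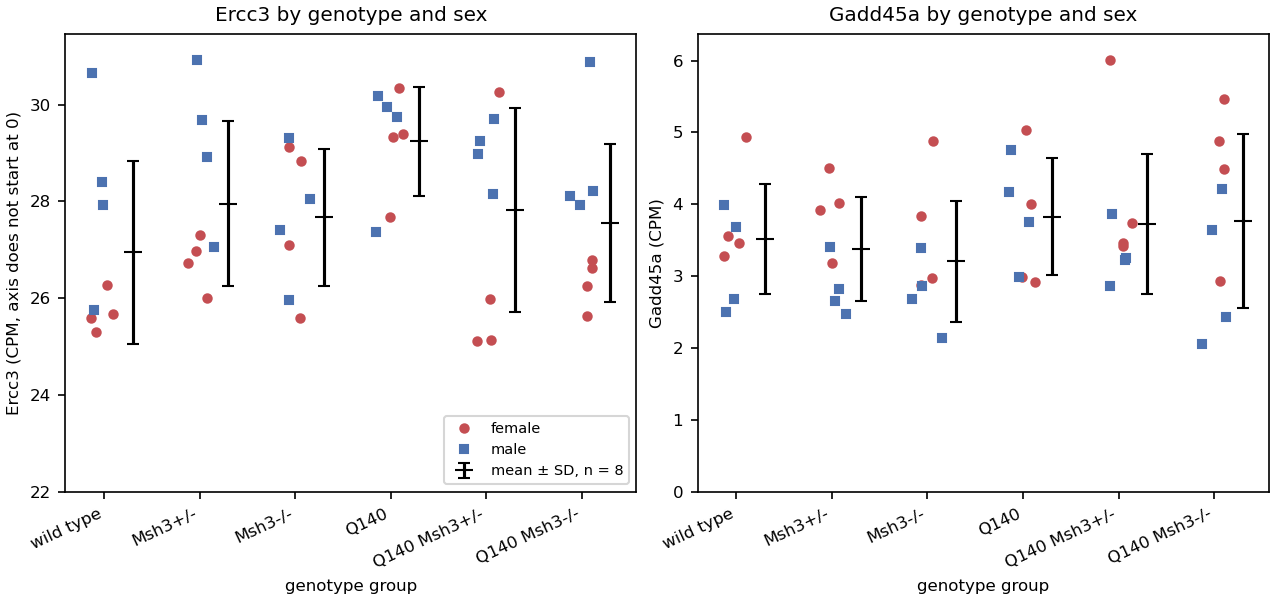
Levels (CPM) of Ercc3 (left, axis not starting at 0) and Gadd45a (right) by genotype group, with circles for females, squares for males and the mean ± SD (n = 8) beside each group. Male Ercc3 means are 28.2 to 29.2 CPM against 25.7 to 26.8 in females in 4 groups and close in Msh3-/- and Q140, and mean Gadd45a is lower in males in 5 of 6 groups.

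Both sex calls were lost without a filter on low counts (adjusted p = 0.0548 for Ercc3 and 0.0683 for Gadd45a) and without the 7 male libraries rich in choroid plexus or pituitary markers (0.139 and 0.159, with changes of 0.074 and -0.293). Ercc3 was called in 48 of 48 fits that left out 1 library. Gadd45a was called in 44 of 48 and lost without female 3 of wild type (adjusted p = 0.05), Msh3-/- (0.0548) or Q140 with Msh3+/- (0.0578), or female 1 of Q140 with Msh3-/- (0.0541). It was also lost with a plate column term (0.0967) and with the name prefix as a random block (0.0506). Markers of other cells differed between the sexes in the same libraries. All 4 blood markers were lower in males, with a summed level of 0.0699 to 22.3 CPM in females and 0.12 to 7.3 in males. Of 5 oligodendrocyte markers 3 were lower in males, with sums of 1450 to 2265 CPM in females and 1258 to 1878 in males. Of 3 pituitary markers 2 were higher in males, with sums of 0.419 to 3.59 CPM in females and 0.273 to 45.2 in males. Their part in the results for Ercc3 and Gadd45a was not tested.

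Cdkn1a varied most between mice after removal of group and sex as additive terms. Sex differences that vary between groups stay in these residuals. In Msh3+/- mice the Cdkn1a mean was 15.96 CPM in females and 9.92 CPM in males. Males 1, 2 and 3 of that group are among the 7 libraries rich in choroid plexus or pituitary markers. These means, and the residual SD and ranges below, were not computed without those libraries. The residual SD of Cdkn1a was 0.395 on the log2 scale, followed by Gadd45a at 0.319, Brca2 at 0.306 and Brca1 at 0.273. The lowest was 0.055 for Trp53bp1. Over all genes tested the median was 0.148. Cdkn1a had a median of 568 counts per library. Of 2174 genes of similar level, 33, or 1.52%, varied as much, and the median SD of these 2174 was 0.127. In Msh3+/- mice Cdkn1a ran from 5.51 CPM in male 3 to 22.5 CPM in female 1, the lowest and highest libraries of all 48. The Q140 group was narrowest, from 10.7 to 15.9 CPM.

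Among the other 8 p53 response genes, Gadd45a varied together with Cdkn1a between mice. After removal of group and sex as additive terms, Pearson r over 48 libraries was 0.467 (permutation p = 0.0019 within group and sex, two-sided, 0.0152 adjusted over 8 pairs). Spearman rho was 0.483 (permutation p = 0.00199, adjusted 0.0159). Without the 2 libraries farthest from the median of Cdkn1a, Msh3+/- male 3 and female 1, r was 0.505 (adjusted permutation p = 0.0121). With plate column means also removed it was 0.493 (adjusted permutation p = 0.0096), and without the 7 libraries rich in choroid plexus or pituitary markers 0.473 (0.0258). The other 7 pairs did not pass. Zmat3 and Mdm2 had r of 0.332 and 0.278 (adjusted permutation p = 0.174 and 0.199), Phlda3 0.059, Bax -0.077, Trp53 -0.092, Ccng1 -0.225 and Bbc3 -0.226. Of 13 marker lists, 0 passed for Cdkn1a. Dividing-cell, glucocorticoid-responsive, astrocyte and microglia lists had r of 0.327, 0.302, 0.278 and 0.274, each with an adjusted permutation p of 0.146. Outside the p53 genes, Cdkn1a had r of -0.544 with Brca2, -0.533 with Rad50 and -0.502 with Xpc, each larger in size than its r with Gadd45a, and Gadd45a had 0.567 with Lig4. These are descriptions, with no test. Over all 1035 pairs of the 46 genes, which share library and depth, the median r was 0.018, from -0.584 for Atr with Zmat3 to 0.596 for Ercc1 and Ercc2, which lie near each other on chromosome 7.

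**Figure D5:**
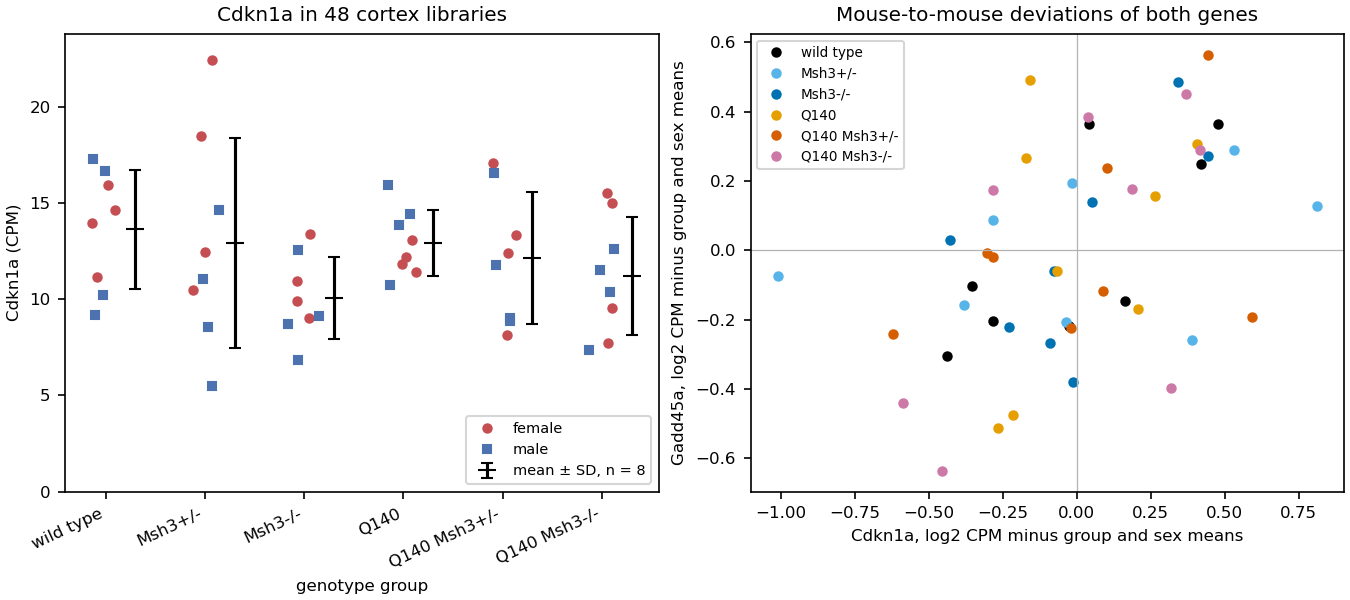
Cdkn1a level (CPM) by genotype group with circles for females, squares for males and mean ± SD (n = 8) on the left. On the right is the log2 CPM of Gadd45a against that of Cdkn1a after removal of group and sex as additive terms, 1 point per library. Cdkn1a spans 5.51 to 22.5 CPM in Msh3+/- mice, and the 48 points rise together with r of 0.467.

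A list of 97 other genes of the same pathways, of which 94 were tested, was counted in the same fit. It held 13 further base excision genes, 18 of nucleotide excision, 30 of strand-break repair, 8 of translesion synthesis and 28 of the p53 response. In each of the 12 genotype comparisons edgeR called 0 of the 94 and DESeq2 0, with 1 to 11 under an unadjusted p of 0.05. The share of all genes called in these comparisons was between 0% and 1.47%. For Q140 averaged over Msh3 genotypes 11 of 94 (11.7%) had an unadjusted p under 0.05, against 15.1% of all genes, and 41 lay above 0, with a median of -0.008. For Msh3-/- averaged over Q140 status the count was 10 of 94 (10.6%), against 14.9% of all genes, and 47 lay above 0. Between the sexes edgeR called 1 higher and 1 lower in males, against 4.28% of all genes called, and DESeq2 called 3. Rad52, a single-strand annealing protein, had 0.122 ± 0.036 (edgeR adjusted p = 0.0355), and Tigar, a p53-induced fructose bisphosphatase, -0.094 ± 0.029 (0.0483).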

How the data were processed

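RNA from the cortex of 48 mice was sequenced after TruSeq stranded library preparation, per the labels' protocols. Per Ensembl gene, the authors deposited raw integer counts, and also FPKM in which each count is divided by a gene length and by its library's total. Per the submitters' processing notes, the tools were HTSeq 0.12.3, SAMtools 1.10 and STAR 2.7.5c, with GRCm38 and mm10 given as builds. The annotation release and the strand setting of the counting are not given in the sources used here. FPKM was used for levels between genes only.

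Counts were filtered with filterByExpr by group (minimum count 10, minimum total 15) and scaled by TMM. One quasi-likelihood model with 6 groups and sex was fitted over all 48 libraries in edgeR 4.0.16 (R 4.3.3), with 13 contrasts, two-sided, and Benjamini-Hochberg adjustment over the 19547 genes tested. A gene was called at an adjusted p under 0.05. The fit was run on simulated counts with known changes, as a check of the code. This does not show that changes as small as most of those above would be called. Correlations used log2 CPM (prior count 2) after removal of group and sex as additive terms, with 100000 permutations within group and sex (scipy 1.17.1, numpy 2.4.6). The p-values measure the spread between mice labelled as separate replicates, and no 2 libraries of a group agreed within counting error. The first part of the mouse names, the name prefix, takes 27 values over the 48 mice, and mice within and between groups can share it. The correlation within a prefix was 0.100. The main fit treats the mice as independent.

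Alternatives were DESeq2 1.42.0, its size factors, no filter, no sex term, plate column, a replicate block, the name prefix as a random block in limma 3.58.1, only the groups compared, left-out libraries, and left-out libraries rich in choroid plexus or pituitary markers. GENCODE M21 gave gene coordinates on GRCm38. The 46 genes, the list of 97 other pathway genes and the marker lists were chosen with earlier results of these data known. By rule, values by group are given for each gene called, for the 2 of smallest p on each side of 0 in each comparison, and for 13 genes always. The columns of the tables that belong to no sample of this series number 0.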

Additional observations from a re-analysis of the deposited data

Results flagged for a closer look

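Among 186 sets of 8 libraries, 31 genes in 6 groups, 8 sets held a library farther from the rest than the limit for a single value, and chance alone gives about 1 in 20 sets. Male 3 of Q140 with Msh3-/- had 22.3 CPM of Apex1 against 18.3 to 19.99 in the other 7 libraries, and 39.1 CPM of Ercc2 against 33.6 to 35.6. Exons of opposite-strand genes overlap both genes. Male 2 of Msh3-/- had 28.7 CPM of Xrcc1 against 24.6 to 26.4, and 67.1 CPM of Parp1 against 72.9 to 76.2. The other 4 were Apex1 in wild-type female 3 (17.7 CPM against 19.0 to 19.9), Brca1 in Q140 male 4 (1.72 against 0.712 to 1.18), Xrcc4 in Msh3+/- female 4 (5.16 against 3.46 to 4.12) and Gadd45a in female 3 of Q140 with Msh3+/- (6.01 against 2.86 to 3.86). The last is one of the 4 libraries without which the sex difference of Gadd45a was not called.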

How the results depend on the processing

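The count of 0 calls among the 46 genes held under every setting run for the 7 pairwise comparisons, both averaged Msh3 comparisons and both interactions, including each fit that left out 1 library. For Q140 averaged over Msh3 genotypes the count of 1 became 0 with a plate column term and 0 without the 7 libraries rich in choroid plexus or pituitary markers. The first adds 5 parameters, and Q140 was spread unevenly over the plate columns. Column 1 held 5 female and 2 male carriers and 1 female without Q140. Column 3 held 2 female carriers, with 2 females and 4 males without Q140. The second leaves fewer libraries, and all those left out were without Q140. The cause was not tested further. The sex count of 2 became 0 without a filter on low counts and 0 without those 7 libraries, 1 with a plate column term and 1 with the name prefix as a random block; the cause was not tested. Leaving out 1 library gave 1 to 3 sex calls. No fold change of a named gene reversed. The correlation of Cdkn1a with Gadd45a passed under all 3 settings run. With a replicate block the counts were 0 in the comparisons with 0 calls, 1 for Q140 averaged over Msh3 genotypes and 2 for sex, so it changed no call. The labels do not say that a number marks a shared litter, batch or day, and not every same-numbered pair correlated over 0.1, so the numbers were not taken to pair the mice: over 120 same-numbered pairs the median correlation of deviations was -0.021, against -0.026 for other numbers, and 6 were over 0.1. The libraries that correlated best with their own number were 20 of 48, against 12 if the numbers carried nothing. This excess is a hint from the data, not from the design. Depth limits Brca1 most, with a median of 58 counts per library.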
